A study of Mus musculus with 48 samples.

Results

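The 10 immediate early genes described here (Fos, Fosb, Jun, Junb, Egr1, Ier2, Ier3, Atf3, Dusp1 and Zfp36) were chosen by name, and all 10 were found among the 23284 gene symbols of the table. They were measured in 48 single mouse cells of 1 group. The cells derived from 129P2/OlaHsd embryonic stem cells with an inducible Mesp1, a transcription factor of early cardiovascular mesoderm. Mesp1 was induced in the embryoid bodies by doxycycline at 500 ng/ml between days 2.25 and 3.25, and on day 4 they were dissociated, sorted for exclusion of propidium iodide and captured on a Fluidigm C1 device. Every cell thus went through induction, dissociation, sorting and capture, so the part of any of these in the levels below cannot be told apart. No uninduced cells and no separate cultures were labelled, so values are descriptions and no test was made from cells.

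Immediate early genes are transcribed within minutes of a stimulus without new protein synthesis, mostly through the MAP kinase pathways and the factors SRF and CREB. Fos-type and Jun-type proteins pair to form the dimeric factor AP-1, Egr1 is a zinc finger factor, and Dusp1 and Zfp36 act in feedback, the former by dephosphorylating MAP kinases and the latter by promoting decay of unstable mRNAs. In mesoderm the ERK branch is driven largely by FGF. The same genes are also known to respond when tissue is taken apart into single cells.

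Levels are FPKM (fragments relative to transcript length and library size), and a gene counted as detected at 1 FPKM. Depth per cell is unknown because the table holds no counts. Cells had between 4788 and 7010 detected genes (median 6212), and this number fell as the number in the cell's label rose (Spearman's rho = -0.82 over 48 cells). Medians were 6506 genes in the 25 cells with labels up to 48 and 5711 in the 23 with higher labels. The 7 cells with fewer than 5189 genes (3 median absolute deviations below the median) all had labels of 84 or higher and are called few-gene cells below. All 18 mesoderm genes listed, such as Pdgfra and Mesp1, reached 1 FPKM in no fewer than 25% of cells, beside 35.8% of all symbols. None of 5 endothelial, 5 blood or 5 neurectoderm markers did, and Cdh5, Emcn, Ptprc and the globins Hbb-bh1 and Hba-x were listed at 0 in every cell. Of 5 endoderm markers Foxa2 reached that mark (12 cells), and of 10 pluripotency genes 8 did. These lists were chosen with earlier results of these data known.

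Upstream sequences are shown for Fos and for the AP-1 genes with the highest relations to it, Jun and Fosb, and for Dusp1, a feedback gene whose relation to Fos was low. They are the 250 bases before the start site, from RefSeq on GRCm38.p6, 5′ to 3′ in the direction of the gene. Capitals mark TATAAA, the TATA box (on the gene's strand only), TGACG, the core of the site bound by CREB and ATF factors (either strand), and TGACATCA, an AP-1 type site (either strand).
Fos, chr12:85473640-85473889, plus strand: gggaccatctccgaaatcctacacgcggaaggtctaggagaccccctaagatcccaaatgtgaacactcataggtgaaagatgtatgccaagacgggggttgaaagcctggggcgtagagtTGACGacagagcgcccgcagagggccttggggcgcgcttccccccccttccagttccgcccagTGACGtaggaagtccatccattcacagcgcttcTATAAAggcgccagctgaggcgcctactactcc
Fosb, chr7:19310046-19310295, minus strand: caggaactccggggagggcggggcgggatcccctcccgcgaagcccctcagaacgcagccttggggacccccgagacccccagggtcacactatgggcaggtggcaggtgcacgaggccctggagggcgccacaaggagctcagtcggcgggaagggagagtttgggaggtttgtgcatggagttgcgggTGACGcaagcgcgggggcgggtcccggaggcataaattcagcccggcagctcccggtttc
Jun, chr4:95052223-95052472, minus strand: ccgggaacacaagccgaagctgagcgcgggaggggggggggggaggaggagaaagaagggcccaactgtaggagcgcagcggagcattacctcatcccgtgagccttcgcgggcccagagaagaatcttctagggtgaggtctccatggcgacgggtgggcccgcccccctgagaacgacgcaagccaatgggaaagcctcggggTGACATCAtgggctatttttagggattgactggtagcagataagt
Dusp1, chr17:26508473-26508722, minus strand: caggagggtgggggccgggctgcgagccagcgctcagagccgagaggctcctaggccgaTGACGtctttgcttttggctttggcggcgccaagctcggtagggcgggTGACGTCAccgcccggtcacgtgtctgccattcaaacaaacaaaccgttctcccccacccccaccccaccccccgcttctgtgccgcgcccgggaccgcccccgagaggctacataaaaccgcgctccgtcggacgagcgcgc

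RefSeq windows were matched for 8 of the 10 genes, all but Egr1 and Ier2. The TGACG core was present in 5 of the 8 windows (Fos, Fosb, Junb, Atf3 and Dusp1), beside 17.8% of all 32851 windows of the same length. Fos held it at 129 to 125 and at 66 to 62 bases before the start, Fosb at 60 to 56 and Dusp1 at 191 to 187 and at 143 to 139. In Dusp1 the latter was part of a full palindrome, TGACGTCA, which 1.55% of all windows held. In Jun the variant TGACATCA lay 45 to 38 bases before the start (2.93% of all windows). TATAAA was found in the Fos window alone (7.59% of all), the CArG box, the binding site of SRF, in that of Zfp36 alone (1.47% of all), and the classical AP-1 site TGACTCA in none of the 8 (4.46% of all). GCGNGGGCG, the site of EGR factors, was in the windows of Fosb and Zfp36 (4.70% of all). All motifs but the TATA box were searched on both strands, each TGACGTCA also counts as TGACG, and a match is no evidence of binding. Bases farther upstream, and Egr1 and Ier2, were not searched, so absence from a window does not mean that the gene lacks the site.

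Detection of the genes was graded. Of the 10 members, 7 reached 1 FPKM in 25% of cells or more, beside 35.8% of all symbols. With other marks the number was 8 (0.1 FPKM) and 5 (10 FPKM). The share of all symbols was taken at 1 FPKM only, so these counts have none to be set against. Fos was detected in 44 cells (91.7%, exact Clopper-Pearson 95% interval 80.02% to 97.7%), Jun in 42, Ier2 in 40, Egr1 in 36, Dusp1 in 29, Fosb in 25 and Junb in 14. Zfp36 was detected in 9, Atf3 in 8 and Ier3 in 1. Intervals cover counting error only, since a transcript can be lost within a cell, and even the housekeeping gene Hprt was listed at 0 in 13 cells. A cell had a median of 5 of the 10 genes, with a range from 0 to 9, and 34 cells had 5 or more.

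**Figure D1:**
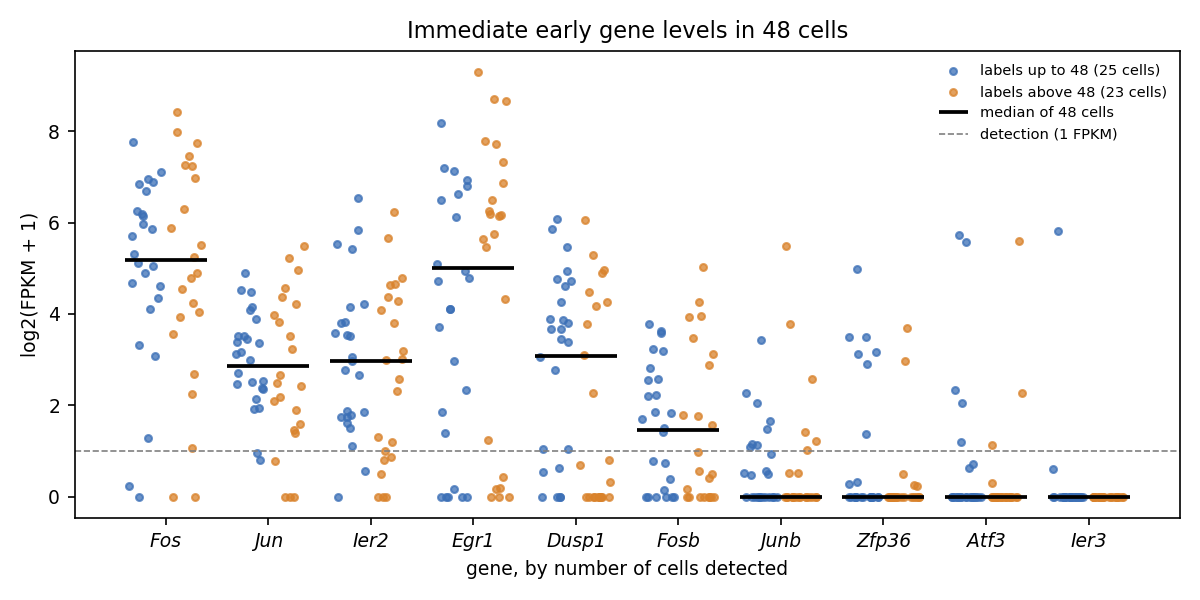
Levels of the 10 immediate early genes as log2(FPKM + 1), one point per cell, coloured by the number in the cell's label; black bars are medians over 48 cells and the dashed line is 1 FPKM. Fos and Egr1 reached the highest levels, and the medians of Junb, Zfp36, Atf3 and Ier3 were at 0.

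Among the AP-1 genes of the 10 members, Fos had the highest median level. Fos (chromosome 12, 85473890 to 85477273, plus strand) spanned 0 to 343 FPKM (median 35.3, quartiles 15.1 and 105). It was listed at 0 in 3 cells, and 13 cells had over 100 FPKM. Fosb, the close relative of Fos (chromosome 7, 19302696 to 19310051, minus strand), spanned 0 to 31.7 FPKM (median 1.74). Only 8 cells had 10 FPKM or more of Fosb, against 38 for Fos, and Fos was above Fosb in 44 cells.

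Jun, the principal partner of Fos (chromosome 4, 95049034 to 95052222, minus strand), spanned 0 to 43.8 FPKM (median 6.24). Its quartiles were 3.15 and 14.1 FPKM, and its squared coefficient of variation, the lowest of the 5 members that could be assessed, was 0.50 times the trend for genes of its mean. Fos exceeded Jun in 39 cells, and 40 cells had both at 1 FPKM or more. Junb, a close relative of Jun, spanned 0 to 43.7 FPKM (median 0). A single cell, C81, held 46.9% of all Junb, and 27 cells listed it at 0. Jun was above Junb in 42 cells. Atf3, a stress-induced member of the wider bZIP class, was listed at 0 in 37 cells, but 3 cells (C13, C32 and C53) had 46.4, 51.8 and 47.7 FPKM.

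Egr1 spanned 0 to 628 FPKM (median 31.2), and while 12 cells were below 1 FPKM and 31 were at 10 FPKM or more, only 5 lay between. Dusp1 likewise had few cells between these levels (19, 22 and 7 cells), as did the induced gene Mesp1 (18, 23 and 7), whereas Ier2 had 8, 20 and 20. Such a gap was not particular to the members: Btg2 had 4 cells between these levels and Hand1 had 3, while Klf6 had 21. The share of all genes with such a gap was not computed. Together Egr1 (41.2%) and Fos (33.7%) made up 74.9% of the summed FPKM of the 10 genes. Egr1 was the highest of the 10 in 19 cells, Fos in 18, Ier2 in 6, Dusp1 in 4 and Jun in 1. Egr1 and Fos were also the 2 of 5 testable members called variable, with squared coefficients of variation 5.57-fold and 2.58-fold above the trend, beside 10.6% of all genes called at 2-fold. Ier2 (1.29-fold), Dusp1 (1.06-fold) and Jun were not, and the other 5 had means under the 5 FPKM required.

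Ier2, a nuclear protein gene, spanned 0 to 92.4 FPKM (median 6.88). Ier3, a stress-response gene, was in effect a gene of 1 cell: C01 had 55.4 FPKM, or 99.1% of the sum, and 46 cells listed it at 0. That cell also had the most immediate early genes, 9 of 10, but 4 of these lay just above the detection mark, between 1.06 FPKM (Dusp1) and 1.29 FPKM (Atf3).

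Of the feedback genes, Dusp1 spanned 0 to 66.6 FPKM (median 7.44), and 22 cells had 10 FPKM or more. It was detected in 19 of the 25 cells with labels up to 48 and in 10 of the 23 above. Over 48 cells Dusp1 had a rho of 0.42 with the count of detected genes, against -0.02 for Fos, -0.15 for Egr1 and 0.04 for Ier2, and the part of detection in its values was not tested. Zfp36 spanned 0 to 30.9 FPKM (median 0), was listed at 0 in 34 cells, and was detected in 7 of 25 and 2 of 23 cells of these parts.

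The number of members detected per cell moved with the number of detected genes (rho = 0.39 over 48 cells). Few-gene cells had a median of 3 members and the other 41 cells a median of 6. Of the few-gene cells, C95 had none and C92 had Ier2 alone (4.00 FPKM). C87 had the fewest detected genes of all cells (4788) and also the highest Egr1 (628 FPKM), with Fos at 151 FPKM. Over the 7 few-gene cells, Egr1 was detected in 2 (median 0.15 FPKM) and Fos in 5 (median 15.4 FPKM).

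**Figure D2:**
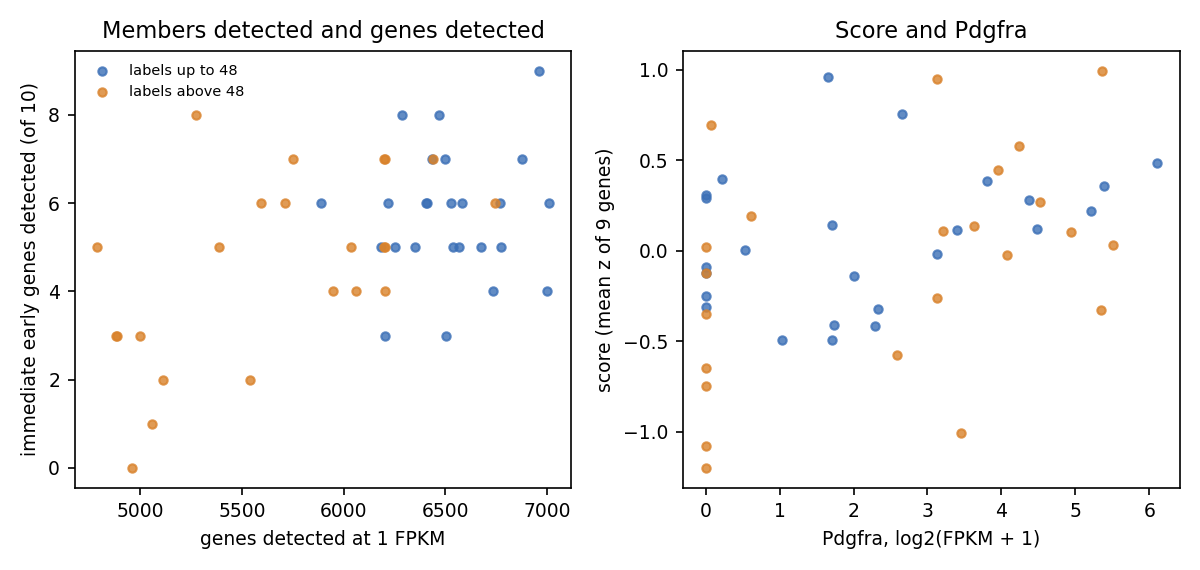
Left, number of the 10 immediate early genes detected against the number of genes detected at 1 FPKM in each of 48 cells; right, the score of 9 immediate early genes against Pdgfra as log2(FPKM + 1). Cells with few detected genes had fewer members (rho = 0.39), and the score was higher in cells with more Pdgfra (rho = 0.41).

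Among the members, Fos had its highest relations across cells with Jun, Egr1 and Fosb. On log2(FPKM + 1), Fos correlated with Jun at rho = 0.57 (Pearson's r = 0.54), with Egr1 at 0.56 (r = 0.55) and with Fosb at 0.51 (r = 0.50), over 48 cells of 1 capture. Without the 2 cells farthest from the median of Fos, r was 0.51, 0.54 and 0.46. Egr1 correlated with Fosb at rho = 0.48 and with Jun at 0.39, while Fosb with Jun had 0.23. In every one of the 25 cells with Fosb, Fos was also detected, but Fos was in 44 of the 48 cells anyway. Cell C70 was the highest for both, with 343 FPKM of Fos and 31.7 of Fosb, and had 414 FPKM of Egr1 and 36.6 of Jun. Of the 13 cells with at least 100 FPKM of Fos, 7 also had at least 100 of Egr1, but 5 cells with 10 FPKM or more of Fos had Egr1 below 1 FPKM.

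**Figure D3:**
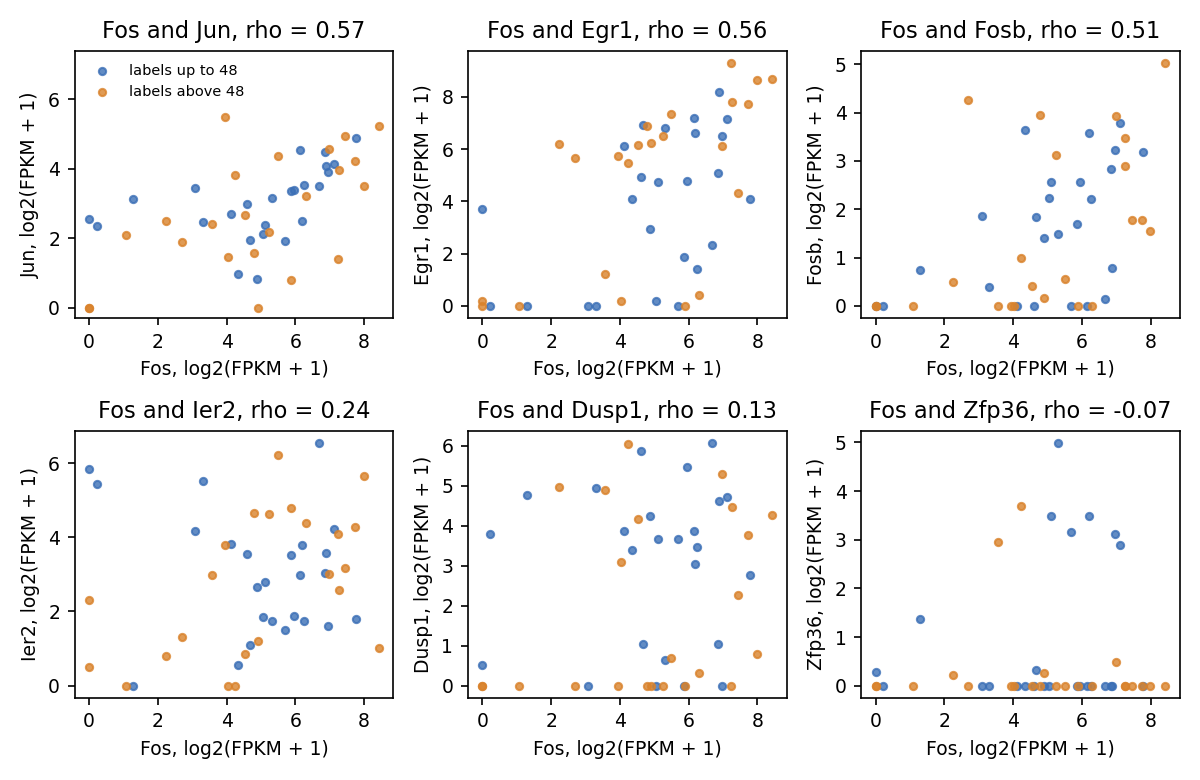
Fos against 6 other members, both as log2(FPKM + 1), one point per cell and coloured by label number. Jun, Egr1 and Fosb rose with Fos (rho = 0.57, 0.56 and 0.51), while Ier2, Dusp1 and Zfp36 had rho = 0.24, 0.13 and -0.07.

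These 3 relations of Fos were there in both parts of the label range. At labels up to 48 (25 cells) rho was 0.66 with Jun, 0.51 with Egr1 and 0.51 with Fosb, and above 48 (23 cells) it was 0.52, 0.64 and 0.54. Without the few-gene cells it was 0.57, 0.48 and 0.43. Egr1 with Fosb was less even, at 0.25 and 0.73 in the parts. Fos had a rho of -0.02 with the number of detected genes.

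Relations of the remaining members to these genes were lower or less even. Ier2 had rho = 0.24 with Fos, 0.14 with Egr1 and -0.06 with Fosb, and its relation to Fos was -0.11 at labels up to 48 and 0.53 above. The cells with the least Fos include high Ier2: C46 had no Fos and 55.8 FPKM of Ier2, and C42 had 0.17 FPKM of Fos and 42.1 of Ier2. Dusp1 had rho = 0.13 with Fos and 0.08 with Egr1. It had 0.35 with Jun and 0.32 with Atf3, but the relation to Jun was 0.04 at labels up to 48, 0.57 above and 0.18 without few-gene cells. The relation to Atf3 was 0.18, 0.42 and 0.25 in these sets. All 8 cells with Atf3 also had Dusp1, out of 29 with Dusp1. Zfp36 had rho between -0.26 (Ier2) and 0.20 (Dusp1). Junb had rho = 0.35 with Jun (0.12 at labels up to 48 and 0.50 above) and 0.31 with Fos (0.22 and 0.41). Without few-gene cells these relations of Junb were 0.22 and 0.27. All 14 cells with Junb had Fos, Jun and Ier2, which were in most cells anyway.

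Over the 36 pairs of the 9 genes detected in at least 5 cells, the mean rho was 0.17 and the median 0.16, and 9 pairs reached 0.3 (25%), beside 2.76% of all gene pairs with that detection, whose median was 0.015. Among the 6 genes detected in at least 24 cells, 6 of 15 pairs did, beside 3.10% of all such pairs. The mean over the 36 pairs was 0.083 without the few-gene cells. It was 0.063 at labels up to 48 and 0.35 above, so the summary over all members depended on these cells more than the relations of Fos with Jun, Egr1 and Fosb did.

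**Figure D4:**
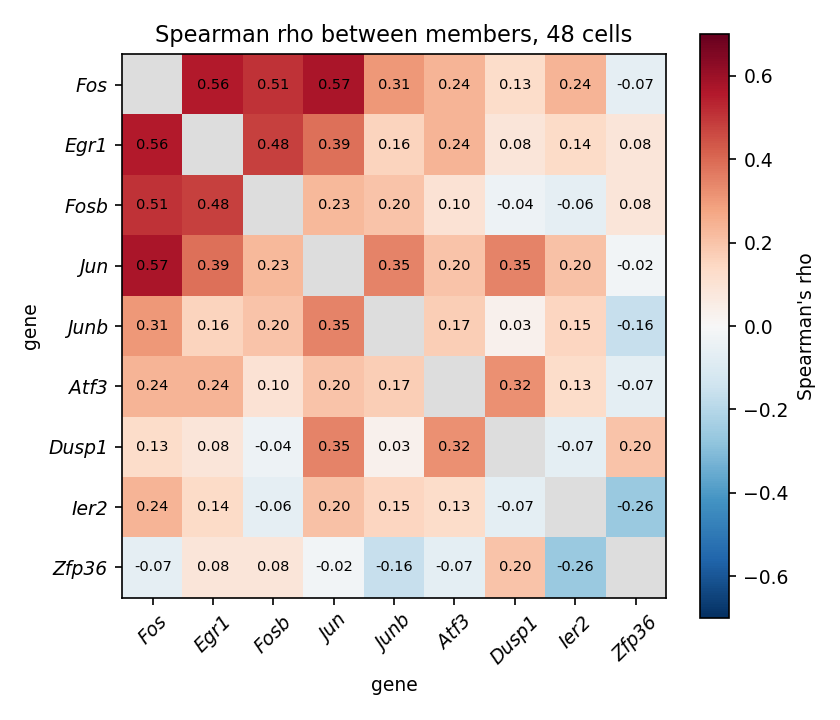
Spearman's rho between 9 immediate early genes over 48 cells, red for positive and blue for negative values; Ier3, detected in 1 cell, is left out. The highest values join Fos with Jun (0.57), Egr1 (0.56) and Fosb (0.51), and the lowest is Ier2 with Zfp36 (-0.26).

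Pdgfra, the PDGF receptor of migrating and paraxial mesoderm, spanned 0 to 67.8 FPKM (median 3.97) and was detected in 31 cells. Crabp1, a cytoplasmic binder of retinoic acid, spanned 0 to 1088 FPKM (median 178) and was detected in 38 cells. These mesoderm genes moved together (rho = 0.46, r = 0.52 over 48 cells), so relations to one are not separate from relations to the other.

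Fosb, Egr1 and Fos had the highest relations to Pdgfra among the members. The rho with Pdgfra was 0.41 for Fosb, 0.40 for Egr1, 0.38 for Fos and 0.29 for Jun, against 0.11 for Junb, 0.06 for Atf3, 0.01 for Zfp36, -0.02 for Ier2 and -0.06 for Dusp1. Of the 9 members detected in at least 5 cells 3 reached 0.3, beside 3.24% of all such genes, and all 3 were among the 6 members detected in at least 24 cells, beside 3.35% of genes with that detection. Pearson's r was 0.38 for Fosb, 0.42 for Egr1 and 0.31 for Fos, and 0.43, 0.40 and 0.29 without the 2 cells farthest from the median of that gene. Fosb was detected in 19 of the 31 cells with Pdgfra and in 6 of the 17 without, and Egr1 in 25 and 11. Fos was in nearly all cells of both kinds (29 of 31 and 15 of 17), so its relation lay in the level. The cell with the most Fos, C70, had 0.051 FPKM of Pdgfra, while C87, with the most Egr1, had 29.6 FPKM.

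Of these relations to Pdgfra, that of Fos was 0.48 at labels up to 48 and 0.27 above, that of Fosb 0.37 and 0.54, and that of Egr1 0.28 and 0.45. Without the few-gene cells, 5 of which were among the 17 cells without Pdgfra, they were 0.34, 0.30 and 0.33. Pdgfra itself had a rho of -0.07 with the number of detected genes. Ier2 pointed in opposite directions in the parts (-0.37 and 0.22).

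With Crabp1, rho was 0.38 for Fos, 0.34 for Egr1, 0.26 for Jun, 0.22 for Atf3, 0.21 for Fosb, 0.19 for Dusp1 and 0.06 for Ier2, with Zfp36 at -0.02 and Junb at -0.15. Pearson's r with Crabp1 was 0.45 for Fos and 0.37 for Egr1, and 0.49 and 0.34 without the 2 cells farthest from the median of that gene. Here 2 of the 9 members reached 0.3, beside 3.59% of genes, and both were among the 6 detected in at least 24 cells, beside 3.64%. Fos was detected in 37 of the 38 cells with Crabp1 and in 7 of the 10 without, and Egr1 in 32 and 4. Without few-gene cells, 4 of which were among the 10 cells without Crabp1, Fos had 0.30 and Egr1 0.28, but Jun had 0.06, Fosb 0.05 and Dusp1 0.03. At labels up to 48 and above, rho with Crabp1 was 0.23 and 0.51 for Fos. It was 0.38 and 0.31 for Egr1, and 0.09 and 0.37 for Jun.

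**Figure D5:**
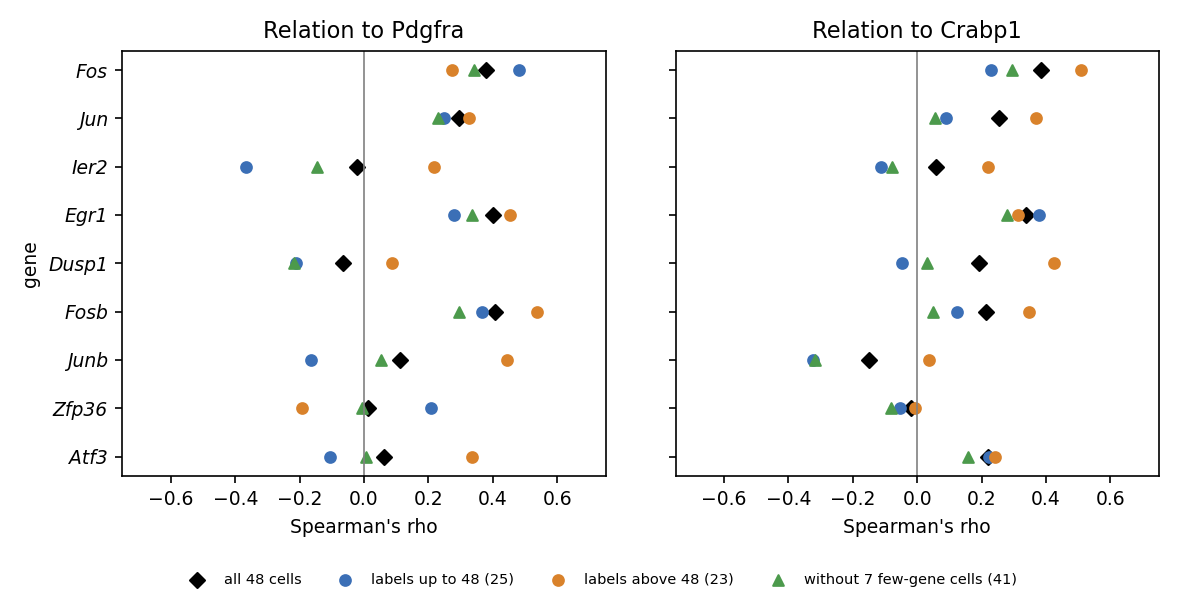
Spearman's rho of 9 immediate early genes with Pdgfra (left) and Crabp1 (right), over all 48 cells (diamonds), in the 25 cells with labels up to 48, in the 23 above, and without the 7 few-gene cells. Fos, Egr1, Fosb and Jun stayed above 0 for Pdgfra in all 4 sets, and there Ier2, Dusp1, Junb, Atf3 and Zfp36 fell on both sides of 0.

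A score, the mean of the z-scored log2 levels of the 9 genes, had rho = 0.41 with Pdgfra (r = 0.37, and 0.29 without the 2 cells of most extreme score) and 0.31 with Crabp1 (r = 0.45, then 0.34). With the score computed anew in each set of cells, the first was 0.298 without the few-gene cells, 0.32 at labels up to 48 and 0.56 above. The second was then 0.097 without the few-gene cells, 0.16 at labels up to 48 and 0.43 above. Relations of the score to other genes and lists in sets of cells keep the score of all 48 cells. The score had rho = 0.19 with the number of detected genes and -0.26 with the label number. Among 18 mesoderm genes, 5 reached rho of 0.3 with the score, beside 3.20% of all other genes: Pdgfra, Crabp1, the VEGF receptor gene Kdr (0.40, with 0.53 and 0.27 in the parts) and the forkhead genes Foxc2 (0.36) and Foxc1 (0.35). Without the few-gene cells, Kdr had 0.46, Foxc1 0.28 and Foxc2 0.26. With that same score of all 48 cells, Pdgfra had 0.287 and Crabp1 0.089, so that Kdr alone of the 5 stayed above 0.3. Pdgfra and Crabp1 are the genes already set against the members above. Mesp1, the induced gene, had 0.20, Hand1, of lateral plate mesoderm, had 0.10, and T, of the primitive streak, had -0.22.

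On the epithelial side, 3 of 7 usable genes had rho of -0.3 or lower with the score, beside 1.49% of other genes: the claudin Cldn6 (-0.47), the keratin Krt18 (-0.38) and E-cadherin, Cdh1 (-0.36). A score of the epithelial list had rho = -0.35 with the immediate early score, and -0.43 and -0.34 in the parts of the label range. The same genes ran against Pdgfra itself, with rho of -0.53 for Cdh1, -0.51 for Cldn6 and -0.36 for Krt18. Foxa2, the 1 endoderm marker in at least 25% of cells, had -0.43 with Pdgfra and -0.30 with the score. The part of such cells in the relation of the score to Pdgfra was not tested. Of 7 usable mesenchymal genes 1 reached 0.3, the fibronectin gene Fn1, beside 3.20% of other genes. A score of the mesenchymal list had rho = 0.28 with the immediate early score. It was 0.37 at labels up to 48, 0.13 above and 0.30 without the few-gene cells. None of the 14 G2 and M phase, 12 S phase or 10 pluripotency genes reached 0.3 in either direction, and their scores had rho of 0.12, -0.01 and -0.11, the last with -0.45 at labels up to 48 and 0.08 above. The heat shock list, of chaperone genes, had 0 of 8 usable genes past 0.3 and a score with rho = -0.07 (-0.35 at labels up to 48 and 0.14 above). Several of the 8 were high in every cell, such as Hspa8 (lowest cell 1344 FPKM). Of the 11 heat shock genes, 2 were detected in no cell, Hspa1a and Hspa1b, so their relation to the score could not be assessed.

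Other immediate early genes went partly with the members. Of 35 such genes, 16 reached 1 FPKM in 25% of cells or more, beside 35.8% of all symbols, and 28 were usable. Of the 28, 7 (25%) had rho of at least 0.3 with the score, beside the same 3.20%, while 0 had -0.3 or lower. The median over the 28 was 0.14, against 0.03 over all other genes. Ppp1r15a, which restores translation after stress, had 0.49, the small GTPase gene Rhob 0.41, the pseudokinase gene Trib1 0.39, the matrix protein gene Cyr61 0.36, and Sik1, Gadd45a and Btg2 between 0.30 and 0.34. After regression on the number of detected genes, Sik1 had 0.23 and Gadd45a 0.14, while the others of the 7 stayed at 0.30 (Cyr61) or higher. Ppp1r15a reached 1 FPKM in 38 cells (median 16.1 FPKM), while Sik1 did so in 6 and Rhob in 15. Several classical members stayed rare: Egr2 was detected in 7 cells, Nr4a1 in 5 and Nr4a2 in 7. Myc (30 cells, rho = 0.05), Klf6 (41 cells, -0.06) and Btg1 (48 cells, 0.07) were common but did not follow the score. A score of the 28 had rho = 0.66 with the immediate early score, 0.53 and 0.79 in the parts and 0.52 without few-gene cells.

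Among other AP-1 subunits, 3 of 10 were detected in at least 25% of cells (Atf4 in 47, Atf2 in 42 and Mafg in 31), beside 35.8% of all symbols. The median of Atf4 was 75.1 FPKM, above the 35.3 FPKM of Fos. With the score, 0 of 6 usable subunits reached 0.3, beside 3.20% of other genes. Jund and Fosl2, relatives of Jun and Fos, were detected in 6 cells each. The relatives of Zfp36 were far more common than it, with Zfp36l1 in 44 cells (median 11.1 FPKM, rho with the score 0.34) and Zfp36l2 in 41 (median 24.5 FPKM, rho 0.21). After regression on the number of detected genes, the rho was 0.21 for Zfp36l1 and 0.04 for Zfp36l2.

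Of 19 upstream components 15 were detected in at least 25% of cells, beside 35.8% of all symbols. With the score 2 reached 0.3, beside 3.20% of other genes: Mapk8, which encodes the kinase JNK1, at 0.45 (28 cells) and the SRF cofactor gene Mkl1 at 0.31 (8 cells). After regression on the number of detected genes, Mapk8 had 0.44 and Mkl1 0.19. Srf itself was detected in 15 cells (rho = 0.00) and Mapk3, encoding ERK1, in 48. Of the FGF and ERK feedback genes 7 of 8 were in at least 25% of cells, beside the same 35.8%. Among them were Spry2 (48 cells, median 69.3 FPKM) and Dusp6 (44 cells, 43.5 FPKM). With the score 0 of 8 reached 0.3 (Spry4 0.24, Etv5 0.23, Spry2 0.19, Dusp6 0.06). Dusp6, which encodes an ERK phosphatase that FGF induces, had -0.32 with Pdgfra and -0.41 with Crabp1.

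By the rule fixed for likeness, the 12 genes closest to the score among 8330 detected in at least 12 cells were Msl3 (rho = 0.63), Id1 (0.56), Chst12, Cdk14, Tcf12, Acvr2b, BC055324, Ppp1r15a, Mob1a, Tspan4, Stim2 and Zkscan1 (0.48), over 48 cells. Msl3 encodes a chromatin protein, Id1 an inhibitor of bHLH factors that BMP induces, and Acvr2b a receptor of activins. Msl3 had 0.64 and 0.60 in the parts of the label range and Id1 0.56 and 0.52. The 6 genes farthest from the score were Eif3l (-0.51), Nosip, Tmem141, Cnot4, Cldn6 and Ahcyl2 (-0.46). After regression on the number of detected genes, the 12 closest had rho from 0.30 (Mob1a) to 0.56 (Msl3). The 6 farthest then had -0.55 (Eif3l) to -0.28 (Ahcyl2). For single genes, Ppp1r15a (0.57), Son and G530011O06Rik were closest to Fos, Zkscan1 (0.52), Msl3 and Npat to Jun, and Ddx3y (0.52), Ppp1r15a and Tmem50a to Egr1. These are the extremes of a ranking of 8330 genes over 48 cells.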

How the data were processed

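The deposited table gives, for each gene row, a value in every cell, and its columns were matched to the cells' titles. The deposited values are taken as FPKM made by the authors: no unit is named in the table, but Cufflinks 2.2.1.0 is among the tools listed per the submitters' processing notes, and values are not whole and sum to between 480821 and 12864400 per cell (414491 to 703483 without 777 symbols of short RNAs). CASAVA 1.8.2, TopHat 0.7 and the mm10 build are listed there too, without their roles. The annotation was not given in the sources used here. Rows of 240 repeated symbols were summed, giving 23284 symbols from 23746 rows, and each member stood on 1 row. No cell was removed and no doublet caller was run, since the table holds no counts.

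Correlations used log2(FPKM + 1), a pseudocount of 1 FPKM, in Python 3.11.15 with scipy 1.17.1. They are given with no p, over cells that share 1 capture. The score took members detected in at least 5 cells. Relations were counted at rho of 0.3 beside the share of all genes, short RNAs left out. Variability used local regression of the squared coefficient of variation on the mean (statsmodels 0.14.6). The ranking procedure was tested on simulated data. Members, lists and the rule for named genes (the members, list genes, the 12 and 6 genes at the ends of the ranking by the score, and 3 each for Fos, Jun and Egr1) were chosen with earlier results of these data known. List genes named with values include some picked after those were seen. Gene positions are from GENCODE M21 on GRCm38 and upstream sequences from RefSeq. Alternatives were the detection threshold, pseudocount, rescaling, covariates, subsets of cells, the filter on members, and leaving out each cell or member.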

Additional observations from a re-analysis of the deposited data

How the results depend on the processing

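Of 56 values of the main summaries under other settings, 50 moved by less than the spread allowed (for a rho 0.15, for members per cell the SD over cells, for a count 1.5 times). For the mean pairwise rho of 0.17 this spread was nearly as wide as the value itself. Its values of 0.083 without the few-gene cells and 0.063 at labels up to 48 thus counted as unmoved. The 56 also include the extremes of leaving out 1 cell or member, which can shift little. At 10 FPKM a cell had a median of 3 members in place of 5. The rho of the score with Crabp1 was 0.55 after rescaling each cell to 1000000 with short RNAs kept in. It was 0.097 without the 7 few-gene cells and 0.16 at labels up to 48, so it depended on the scaling and on the cells used. The same rescaling gave 0.54 for the score with Pdgfra and 0.24 for the mean pairwise rho, both counted as unmoved. At labels above 48 the mean pairwise rho was 0.35 and the score with Pdgfra 0.56. Leaving out each cell in turn (chosen after seeing the data) gave 0.14 to 0.18 for the mean pairwise rho, 0.38 to 0.45 for Pdgfra and 0.27 to 0.37 for Crabp1. Leaving each member out of the score, also added later, gave 0.34 (without Egr1) to 0.47 (without Dusp1) for Pdgfra and 0.25 to 0.36 for Crabp1. The causes were not tested. Depth is unknown, so a gene listed at 0 may have been missed. No paired analysis was possible because the labels give 1 group.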
